A study of Mus musculus with 12 samples.

Results

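The comparison described here set 4 libraries of Neuro-2a cells transfected with a miR-155 mimic against 4 libraries transfected with a control small RNA, labelled miR-Con, and treated the replicate number, 1 to 4, as a block. These are 8 of the 12 libraries of the series, chosen by the labelled treatment and by the number in the column name, and by no measured value. Of the 15767 genes in the deposited count table, 12842 had enough reads in these 8 libraries to be tested. Neuro-2a is a mouse neuroblastoma line, and its genotype is labelled WT in every library. Control and mimic cells alike were transfected with the reagent RNA Fit in medium without serum and antibiotics, received complete medium after 4 hours and were kept until day 2. The remaining 4 libraries, transfected with a miR-155 inhibitor, were not part of the comparison. The study concerns a pathway from miR-155 through PPARγ, PGC-1α and ERRα to Drp1 in neuronal cells short of oxygen, and the labels name no low-oxygen treatment for these libraries. They give neither the dose nor the sequence of the mimic. No label states that the numbered libraries came from separate cultures, so p-values measure only how far these samples spread, and part of that can be technical.

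A microRNA is a short RNA that guides an Argonaute protein to messenger RNAs, mostly through pairing of its seed, bases 2 to 8, with the 3′ UTR. Bound messages are translated less and are usually degraded, so that an active mimic would be read in RNA sequencing as lower levels of messages with seed matches. miR-155 is best known from activated lymphocytes and macrophages, where it restrains regulators such as Socs1, Bach1 and Jarid2. The mature sequences below are those of RefSeq on GRCm38.p6, in which the strand used as the guide, miR-155-5p, lies at chr16:84714143-84714165 and miR-155-3p at chr16:84714182-84714202, both on the plus strand. They are shown because the seed, in capitals, defines which messages the mimic is meant to bind.
mmu-miR-155-5p: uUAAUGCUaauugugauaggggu
mmu-miR-155-3p: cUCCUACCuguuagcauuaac

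Matches to the miR-155-5p seed were looked for on the sense strand of the longest annotated 3′ UTR of each gene as AGCATTAA, AGCATTA and GCATTAA, called the 8mer, 7mer-m8 and 7mer-A1, with each gene placed in the longest class it holds. Of 12683 tested genes with an annotated UTR, 398 held an 8mer, 712 a 7mer-m8 and 574 a 7mer-A1. The sites below are the 8mers, in capitals, of genes reported as miR-155 targets whose values are given further on. They come from GENCODE M21 on GRCm38, which is not the build of the authors, and are placed by chromosome and by position within the 3′ UTR. Jarid2 (chromosome 13) holds 2 such sites, and the one shown starts at base 141 of its UTR, that of Cebpb (chromosome 2) at 454, that of Bach1 (chromosome 16) at 2317, that of Tab2 (chromosome 10) at 737, that of Cux1 (chromosome 5) at 243 and that of Carhsp1 (chromosome 16) at 222.
Jarid2: gattttgttttAGCATTAAactgttcaagt
Cebpb: tttccgtttcgAGCATTAAagtgaagacat
Bach1: atgaacagtttAGCATTAAgggttaatttt
Tab2: ataaggtagaaAGCATTAAtgaaatgaaac
Cux1: gaaaacaaaggAGCATTAAgcccaatctat
Carhsp1: actgtctgaaaAGCATTAAaagcatttgaa

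The 8 libraries held 62389350 to 74200532 reads assigned to genes, and 13673 to 13836 genes had at least 1 read. At this depth, a level of 3 reads corresponds to 0.0404 to 0.0481 CPM, the reads of a gene scaled to the library size. The cells carried markers of a sympathetic neuroblast. Hand2, a transcription factor of that lineage, ranged from 1521 to 1980 TPM, the unit scaled for gene length as well, over the 8 libraries. Dbh, an enzyme of noradrenaline synthesis, ranged from 50.4 to 75.3 TPM and Chga, a protein of secretory granules, from 386 to 473 TPM, while Th, the first enzyme of that synthesis, did not exceed 1.66 TPM. Markers of other cells were low: 6 of 11 fibroblast markers were in the table, with summed levels of 17.5 to 21.5 CPM in control and 14.1 to 19.9 CPM in mimic. Glial markers (8 of 10 in the table) summed to 12.7 to 15.8 and 13.4 to 15.2 CPM, most of it from Mbp, and immune and endothelial markers (7 of 11) to 6.23 to 9.22 and 5.79 to 8.75 CPM. Ptprc, which marks leukocytes, stayed at or under 0.0542 CPM. In bulk libraries, fewer cells of a kind and less RNA per cell cannot be told apart. The miR-155 precursor gene was not analysed here, so the amount of miR-155 in the cells has no measurement in these values.

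No gene passed the test between mimic and control. edgeR's quasi-likelihood test with Benjamini-Hochberg adjustment called 0 of 12842 genes (0.0%), and every adjusted p was 1. Unadjusted p-values fell under 0.05 for 123 genes (0.958%), of which 57 were higher in mimic (0.444%) and 66 lower (0.514%), where evenly spread p-values would give 642. DESeq2 also called 0 genes and had 153 below the same unadjusted limit. With limma on log2(TPM + 1) the figures were 0 and 226. The libraries did not overlap between groups, every mimic library lying on the same side of every control library, for 46 genes higher (0.358%) and 38 lower in mimic (0.296%), 84 in all (0.654%).

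The 95% intervals of the differences were narrow for most genes, so the libraries bear on how large a difference could have been present. For 7585 genes (59.1%) the whole interval lay between 20% lower and 25% higher in mimic, a span called the narrow bound here. For 10604 (82.6%) it lay inside 1.5-fold and for 11585 (90.2%) inside 2-fold. The width of the interval followed the level of the gene. Among the 2612 genes over 100 CPM, where the median standard error was 0.06 on the log2 scale, 94.3% lay inside the narrow bound and 99.8% inside 1.5-fold. Among the 6608 genes from 10 to 100 CPM the shares were 73.9% and 98.5%, with a median standard error of 0.085. In the 2281 genes from 1 to 10 CPM the 1.5-fold bound held for 65.2%, and in the 1341 genes under 1 CPM, with a median standard error of 0.48, for 0.149% and the 2-fold bound for 16.5%. A lower level of more than 1.5-fold in mimic, the direction in which a microRNA is known to act, lay outside the interval for 99.3% of genes from 10 to 100 CPM and 81.3% of those from 1 to 10 CPM. These shares say which sizes the intervals exclude, not which sizes the test would have detected. Smaller differences, inside the narrow bound, are not excluded by them. For most genes under 1 CPM, even a 2-fold difference in 1 direction or the other was not excluded.

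**Figure D1:**
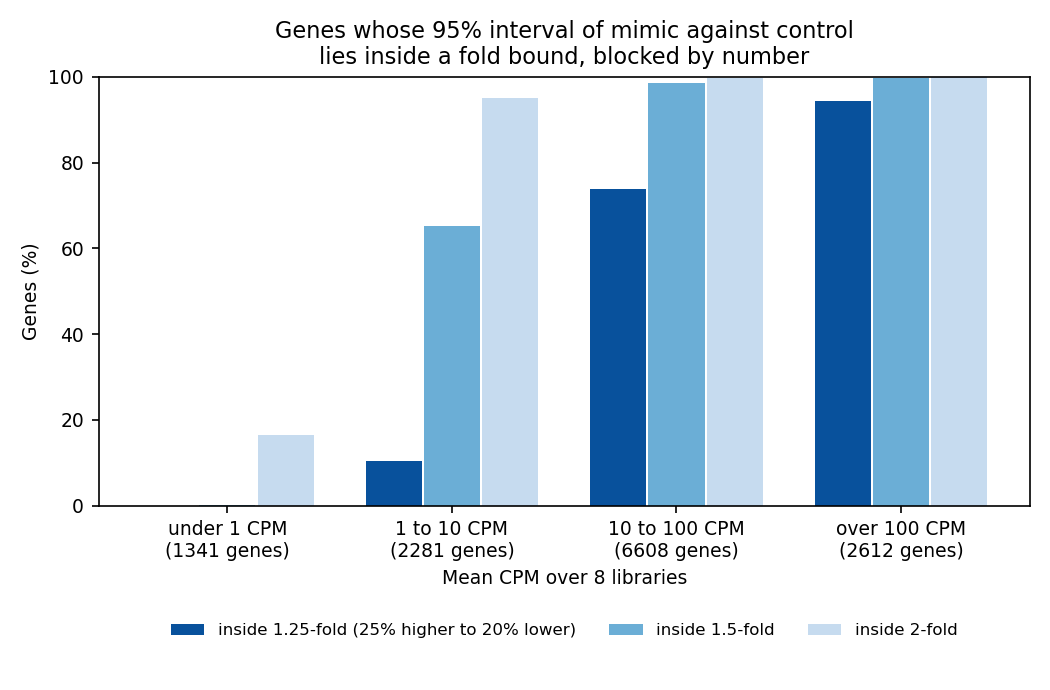
Share of genes (%) whose 95% interval of the mimic minus control difference lay inside the narrow bound (20% lower to 25% higher), 1.5-fold or 2-fold, by mean CPM over the 8 libraries, with the number of genes in each class on the axis. The bars rise with level, from 0.149% inside 1.5-fold under 1 CPM to 99.8% over 100 CPM.

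Over 10 CPM, 12 of 9220 genes had an estimate past 1.5-fold, and 0 of the 12 passed the test. These genes were singled out after their values were seen. Rps18-ps6, a pseudogene of the ribosomal protein gene Rps18, stood at 793, 949, 902 and 761 CPM in control and was listed at 0, 0, 849 and 799.6 CPM in mimic. Rps18 itself did not follow, at 14.4 to 18.2 CPM in all 8 libraries. Gemin4, a component of the SMN complex, stood at 0.426, 62.6, 0 and 0.385 CPM in control and at 51.9, 0.47, 54.8 and 0.38 CPM in mimic, so that the high and the low libraries fell in both groups. Its reads and those of Glod4, a gene that overlaps it, together varied by only 1.09-fold across the libraries, with a correlation of -0.99 between the 2 levels over the 8 libraries. Raver1, a splicing co-repressor, was at 0 and 0.03 CPM in control 3 and 4 and at 118 to 136 CPM in the other 6 libraries. Its overlapping neighbour Gm38431 was high in the same control libraries, at 177 and 169 CPM, and the sum of both varied by 1.22-fold. Levels of such overlapping or copied genes are uncertain, since the rule by which shared reads were assigned is not given. The remaining 9 were Ccnyl1, Septin2, Gm49378, Gm49510, Gm28043, Guca1a, Skida1, Ilk and Gm38431.

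Of the 12, Gm49378 was the nearest to separating the groups. It stood at 41.2, 3.83, 40.1 and 34.8 CPM in control and at 2.31, 2.88, 2.11 and 2.63 CPM in mimic, a log2 fold change of -3.27 (SE 0.71, adjusted p = 1 by edgeR). Every mimic library lay under every control library, with control 2 close to the mimic level. Ipo4, an importin that overlaps this gene, showed the reverse, at 166, 235, 177 and 176 CPM in control and at 199.9, 202, 213 and 214 CPM in mimic. The sum of both genes varied by 1.13-fold over the libraries, and its mean in mimic was 0.967 of that in control. The lowest p of all belonged to Gm21154, a predicted gene named here for that reason, at 5.25, 4.45, 5.32 and 1.30 CPM in control and 3.08, 2.86, 2.35 and 0.66 CPM in mimic. It was lower at each number, by 0.89 on the log2 scale in the fit (SE 0.16, adjusted p = 1 by edgeR), while control 4 lay under 3 of the mimic libraries. Without number 2 its log2 fold change was -0.97 (SE 0.2, adjusted p = 0.016 by edgeR).

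The sign of the difference was seldom the same at all 4 numbers. It was for 1049 genes (8.17%), 555 of them higher in mimic at every number (4.32%) and 494 lower (3.85%). The mimic library was the higher at 2 of the 4 numbers for 5175 genes (40.3%), at 1 number for 3665 and at 3 numbers for 2950. Where 1 number stood against the other 3, it was number 2 for 2664 genes (20.7%) and number 4 for 2070 (16.1%), but number 1 for 1102 (8.58%) and number 3 for 765 (5.96%). Beyond the narrow bound in 1 direction at every number there were 3 genes higher and 5 lower, and beyond 1.5-fold there were 0. The 3 higher were Ptp4a1, Zfp473 and Tnni3, and the 5 lower were Gm49378, Gm21154, Izumo4, the linker histone H1f3 and AI429214. Some of these levels were very low. Tnni3, which overlaps Dnaaf3, lay at 0 to 0.33 CPM over the 8 libraries, and H1f3 at 0.23 to 1.46 CPM. No sign-flip test was run, since the smallest two-sided p that 4 numbers allow is 1 in 8.

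The difference at number 2 was also several times as large as at the other numbers. For the 9220 genes over 10 CPM, the median size of the log2 difference in CPM + 0.5 between mimic and control was 0.21 at number 2, against 0.073 at number 1, 0.063 at number 3 and 0.09 at number 4. At number 2 the difference passed the narrow bound for 28.5% of genes, against 1.67%, 1.32% and 3.87% at numbers 1, 3 and 4. Across genes, the profile of number 2 ran opposite to that of number 4, with a Pearson correlation of -0.45 and a Spearman correlation of -0.63, and 24.3% of genes had the same sign at both. Against number 1 the Pearson and Spearman values were -0.07 and -0.34 (38.3% of genes with the same sign), and against number 3 they were -0.06 and 0.18 (58.3%). Numbers 1 and 4 gave 0.19 and 0.29 (60.4%), numbers 1 and 3 gave 0.11 and 0.089 (52.4%), and numbers 3 and 4 gave 0.27 and -0.034 (47.1%). These correlations are over genes, which are not independent replicates, and the pairs of numbers share no library. The distance of each library to the mean of its own group of 4 was taken as well. Genes of control 2 deviated from the control mean by a median of 0.16 on the log2 scale. Those of mimic 2 deviated from the mimic mean by 0.058. Control 4 and mimic 4 deviated by 0.18 and 0.13, and the other 4 libraries by 0.069 to 0.093. Over all tested genes, number took 64.2% of the pooled sum of squares, group 7.86% and the rest 28.0%. Over genes above 10 CPM the shares were 68.1%, 6.69% and 25.2%. They rest on 3, 1 and 3 degrees of freedom, so the shares of number and group are not directly comparable.

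**Figure D2:**
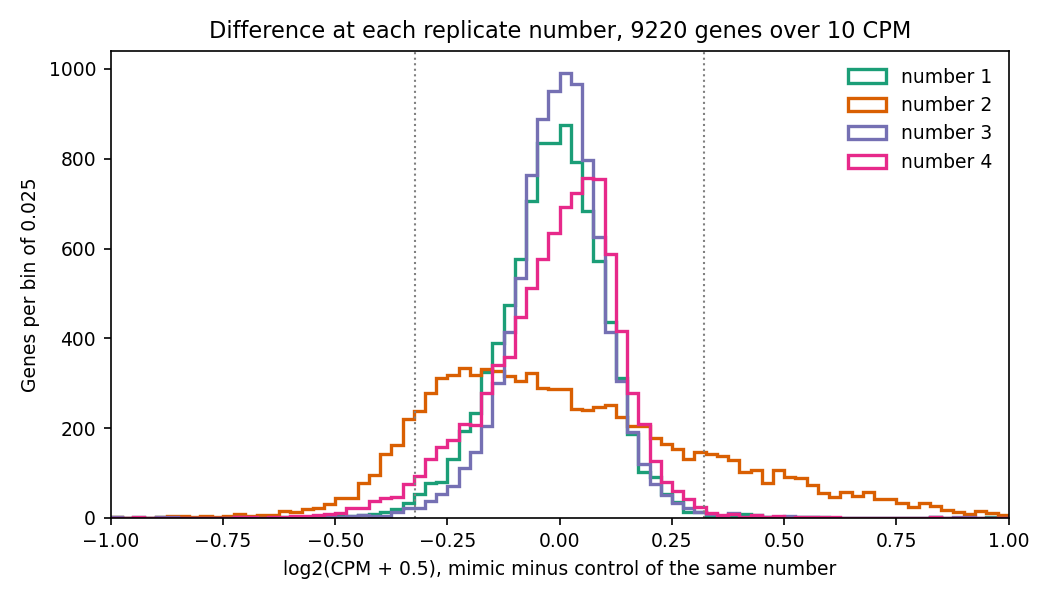
Distribution over 9220 genes above 10 CPM of the difference in log2(CPM + 0.5) between the mimic and the control library of each replicate number, in bins of 0.025, with dotted lines where either library is 25% above the other. The curve of number 2 is the widest, with 28.5% of genes past those lines against at most 3.87% at the other numbers, and the axis leaves out the 12 to 57 genes per number past 1 on the log2 scale.

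The difference at number 2 ran with the base composition of the transcripts. Across genes over 10 CPM the Spearman correlation between the difference and the GC content of the longest transcript was -0.68 at number 2, 0.39 at number 1, -0.14 at number 3 and 0.58 at number 4. With transcript length it was 0.45 at number 2 and -0.37 at number 4. With these genes in 5 equal bins by GC, the bin of lowest GC, 31.0 to 44.2%, had a median difference of 0.35 at number 2, -0.1 at number 1, -0.003 at number 3 and -0.14 at number 4. In the bin of highest GC, 55.8 to 71.3%, the medians were -0.23, 0.031, -0.037 and 0.083 at numbers 2, 1, 3 and 4. In the blocked fit these opposite trends left medians of 0.023 and -0.04 in the lowest and the highest bin. Among single libraries, deviations rose with GC in control 2 (Spearman 0.67) and fell with it in control 1 (-0.57) and control 4 (-0.39). The part of GC in the differences was not tested beyond the offsets described further on.

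Of the 398 genes with an 8mer, 228 were higher and 170 lower, with a median log2 fold change of 0.014. The 7mer-m8 genes had a median of 0.013 (423 higher, 289 lower) and the 7mer-A1 genes 0.023 (347 higher, 227 lower), beside -0.0054 for the 10999 genes without a match and -0.0018 for all genes tested. Without number 2 the medians were -0.04, -0.038 and -0.028 for 8mer, 7mer-m8 and 7mer-A1, and 0.0028 without a match, so that their direction turned with that number. At number 2 the 3 classes with a match were higher in mimic, with medians of 0.17, 0.19 and 0.17 for 8mer, 7mer-m8 and 7mer-A1 against -0.043 without a match. At number 4 they were lower, at -0.069, -0.072 and -0.057 against 0.014, and at number 1 at -0.034, -0.048 and -0.049 against -0.007. At number 3 all 4 classes lay within 0.004 of 0. Genes with a match had a median GC of 46.0 to 46.3%, against 51.0% for those without.

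UTR length moved with the site classes as well. With genes in 3 equal bins by UTR length, the bin of longest UTRs held 272 genes with an 8mer, whose median in the blocked fit was 0.024, and 3106 genes without a match, whose median was 0.013. In the bin of shortest UTRs, the 34 8mer genes had a median of -0.044 and the 4100 genes without a match -0.021. The middle bin gave 0.0038 for 92 genes with an 8mer against -0.0039 for 3793 without a match. Without number 2 the genes of longest UTRs had a median of -0.066 with an 8mer and -0.016 without a match, the opposite sign to the fit with all numbers, and at number 4 alone -0.12 and -0.04. In the bins of short and of middle UTRs the medians without number 2 were -0.015 and -0.00089 with an 8mer, against 0.015 and 0.003 without a match.

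**Figure D3:**
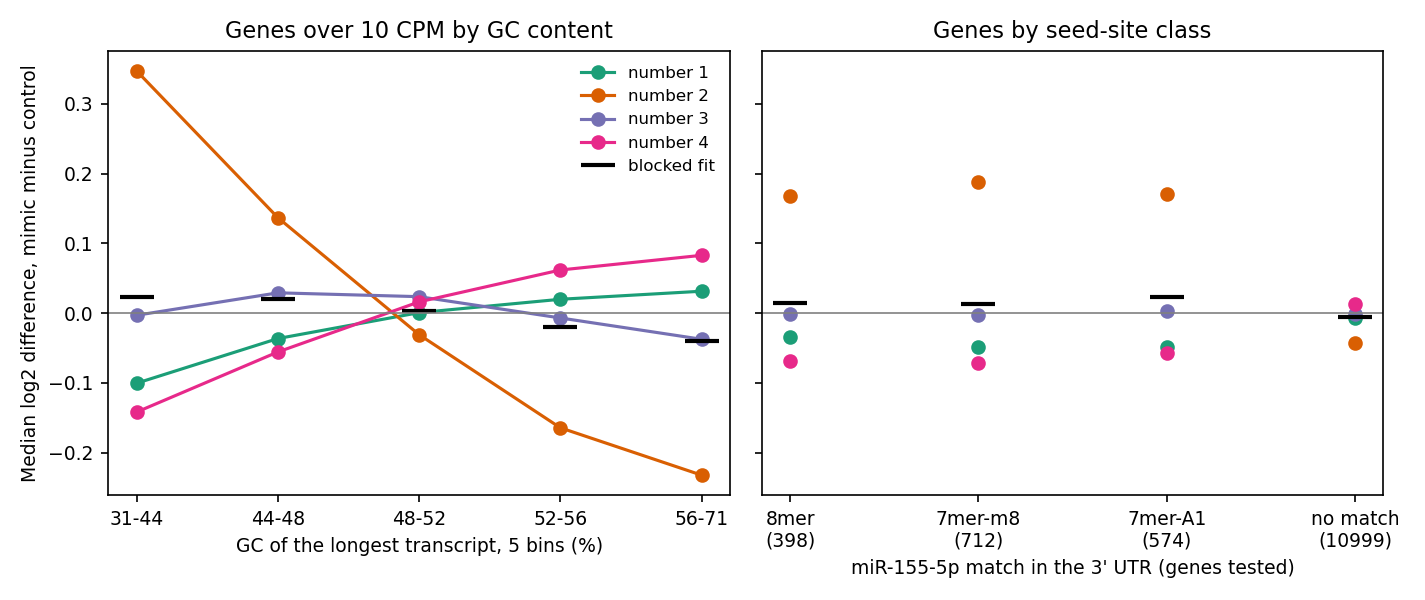
Median difference between mimic and control (log2) at each replicate number and in the blocked fit, for 5 bins of genes above 10 CPM by transcript GC content (left) and for genes by miR-155-5p match in the 3′ UTR (right). Number 2 runs from 0.35 in the bin of lowest GC to -0.23 in the highest, opposite to numbers 1 and 4, and is the one number at which classes with a match stand above 0.1.

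Of 50 genes listed as reported miR-155 targets, 42 were tested, 23 were higher and 19 lower, the median log2 fold change was 0.0078 (-0.0018 over all genes), and 0 had an unadjusted p under 0.05. For 41 of the 42 the interval lay inside 1.5-fold in either direction, beside 82.6% of all tested genes and 98.5% of those from 10 to 100 CPM. At number 2, 32 of the 42 were higher in mimic, whereas 28 were lower at number 1, 22 at number 3 and 28 at number 4. Without number 2 the median of the 42 turned to -0.047, against -0.0013 over all genes, and 8 were lower and 0 higher under 0.05 before adjustment, beside 6.6% of all genes lower, with 0 called. The 42 had a median transcript GC of 46.9% and a median length of 4487.5 bases, against 50.3% and 3358.5 bases over all tested genes. The part of GC and length in this turn was not tested. Jarid2, a subunit associated with Polycomb repressive complex 2, stood at 70.8, 52.6, 60.1 and 109.9 CPM in control and 66.9, 74.1, 63.6 and 109.7 CPM in mimic. The libraries overlapped, number 4 was high in both groups, and the log2 fold change was 0.12 (95% interval -0.11 to 0.36). Cebpb, a transcription factor of inflammatory and metabolic genes, stood at 106, 128, 118 and 76.5 CPM in control and 115, 91.3, 108 and 77.9 CPM in mimic, a difference of -0.12 (-0.35 to 0.12).

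Bach1, a heme-regulated repressor, was at 13.3, 8.61, 10.3 and 17.9 CPM in control and at 11.9, 14.9, 10.9 and 12.8 CPM in mimic, so that mimic was the higher at numbers 2 and 3. Socs1, a brake on cytokine signalling, was low at 3.48 to 4.31 CPM in control and 3.52 to 5.58 CPM in mimic, with a log2 fold change of 0.13 (-0.18 to 0.45). Of the more abundant targets with an 8mer, Carhsp1, an RNA-binding protein, had 187, 227, 199 and 178 CPM in control and 186, 181, 197 and 188 CPM in mimic. Its interval ran from -0.24 to 0.11, and control 2 was the library that lay apart. Tab2, an adaptor of the kinase Tak1, had 139.8, 97.2, 121 and 134 CPM in control and 143, 123, 120.2 and 119 CPM in mimic (interval -0.15 to 0.25). Arid2, a subunit of the PBAF chromatin remodeller, gave -0.25 to 0.4, Cux1, a homeodomain factor, -0.07 to 0.23, Tle4, a Groucho-family co-repressor, -0.19 to 0.14 and Trim32, a ubiquitin ligase, -0.16 to 0.14. The widest interval of the 42, -0.91 to 0.53, was that of Trp53inp1.

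The genes of the pathway the study names did not pass the test either. Pparg, which encodes PPARγ, had 19.3, 18.7, 20.2 and 24.02 CPM in control and 19.0, 15.6, 19.7 and 25.1 CPM in mimic, with a log2 fold change of -0.066 (95% interval -0.27 to 0.14). Esrra, which encodes ERRα, had 89.7, 121, 108 and 69.6 CPM in control and 90.9, 89.8, 99.4 and 75.4 CPM in mimic, a difference of -0.1 (-0.32 to 0.11) that was largest at number 2. Dnm1l, which encodes the mitochondrial fission protein Drp1, had 87.3, 47.0, 68.0 and 88.8 CPM in control and 76.3, 76.8, 62.5 and 77.3 CPM in mimic. Mimic was lower at numbers 1, 3 and 4, by 0.19, 0.12 and 0.2 on the log2 scale, and higher by 0.7 at number 2, where the control library was the lowest of the 8. In the blocked fit Dnm1l differed by 0.045 (-0.31 to 0.4), and without number 2 by -0.17 (SE 0.055, adjusted p = 0.18 by edgeR). Ppargc1a, the gene of PGC-1α, had too few reads to be tested.

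Gene families were read from symbols, 74 of them with at least 3 tested members. In every one the median log2 fold change lay within 0.1 of 0, and no member passed the test. Among the 68 with at least 10 members the medians ran from -0.06 in the histones to 0.079 in the Hnrnp genes. In 52 of the 74 the median by number that was largest in size was that of number 2, and in 17 number 2 had the opposite sign to the other 3 numbers. The median had 1 sign at all 4 numbers in 4 families: higher in Vps, the vacuolar sorting genes, with medians of 0.0041 to 0.013, and lower in Trim (-0.0042 to -0.031), Adam (-0.011 to -0.062) and Eph and Efn (-0.027 to -0.15). In the blocked fit these 3 had medians of -0.0018, 0.014 and -0.011, so that of Adam had the opposite sign, and on log2(TPM + 1) those of Trim (0.021) and of Eph and Efn (0.015) were above 0. The families named next were picked after these medians were seen.

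Of 50 Rpl genes, proteins of the large cytosolic ribosomal subunit, 35 were lower and 15 higher, with a median of -0.035, and of 30 Rps genes 23 were lower, with a median of -0.031, beside 51.0% of all tested genes below 0. Rps14, the lowest of its family, had 675, 935, 786 and 644 CPM in control and 637, 678, 691 and 701 CPM in mimic (log2 fold change -0.15, interval -0.37 to 0.061). The library at 935 was control 2, and the others overlapped. Rps24 lay at the other end, with 243 to 334 CPM in control, 299.5 to 330.0 CPM in mimic and a log2 fold change of 0.13. Among 47 Nduf genes, subunits and assembly factors of respiratory complex I, 35 were lower, with a median of -0.033. For 44 the interval lay inside the narrow bound, beside 59.1% of all tested genes and 94.3% of those over 100 CPM. The Nduf medians by number were -0.045, -0.18, -0.011 and 0.078, so that number 4 had the opposite sign to number 2. Ndufb2 marked the low end with 58.3, 74.2, 70.3 and 57.2 CPM in control and 53.1, 59.9, 62.0 and 58.3 CPM in mimic (-0.15, interval -0.32 to 0.019), and Ndufa5 the high end at 0.095. The 49 Psm genes, of the proteasome and its assembly, had a median of -0.015, or 0.013 on log2(TPM + 1), and ranged from -0.16 (Psmg3) to 0.10 (Psma3). Without number 2 the medians became 0.013 in Rpl, 0.0097 in Nduf and 0.02 in Psm, the opposite sign, and -0.0038 in Rps. The median GC of these families was 49.8 to 51.5%.

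Of 20 Hnrnp genes, which package and splice nuclear transcripts, 17 were higher, beside 51.0% of all tested genes below 0. For 18 the interval lay inside the narrow bound, beside 59.1% of all tested genes and 94.3% of those over 100 CPM. The Hnrnp medians were -0.067, 0.23, 0.08 and -0.034 at numbers 1 to 4, and -0.00044 in the fit without number 2. Hnrnph3, the highest, had 33.9, 26.5, 30.3 and 36.0 CPM in control and 34.9, 31.9, 35.1 and 36.7 CPM in mimic (0.14, interval -0.039 to 0.31). It was higher at every number, but the groups overlapped. Of 357 Zfp genes, zinc finger proteins that mostly bind DNA, 220 were higher and 137 lower, with a median of 0.027. Their medians were 0.28 at number 2 but -0.032, -0.016 and -0.064 at numbers 1, 3 and 4, and -0.045 without number 2. Zfp473 stood out with 1.57, 1.01, 0.933 and 1.11 CPM in control and 2.16, 1.68, 1.83 and 1.80 CPM in mimic. No mimic library reached down to a control library, and the log2 fold change was 0.71 (SE 0.19, adjusted p = 1 by edgeR). The Kif genes, microtubule motors of transport and mitosis, had 22 of 31 members higher, from -0.25 in Kif28, which was under 0.32 CPM throughout, to 0.23 in Kif15. The Usp genes, which remove ubiquitin, had a median of 0.26 at number 2 and -0.13 at number 4, and 0.017 in the fit with all numbers, or -0.045 without number 2. The median GC was 43.9% in Hnrnp, 43.6% in Zfp, 47.6% in Usp and 49.1% in Kif, and its part in these medians was not tested.

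The Argonaute genes and their Tnrc6 partners encode the proteins through which the mimic itself would act. Of these 7 genes, 6 were higher, with a median of 0.062, beside 51.0% of all tested genes below 0. The medians of the 7 by number were -0.013, 0.32, 0.075 and -0.12, and without number 2 the median was -0.041. Tnrc6a, the highest of them, had 48.9, 29.1, 32.3 and 56.6 CPM in control and 48.5, 45.4, 36.1 and 46.2 CPM in mimic (0.12, interval -0.21 to 0.45), and Ago4, the lowest, had 0.766 to 1.80 CPM over all 8 libraries. The histones, with a median of -0.06, are mostly measured at very low levels here, and 12 of 49 intervals lay inside 1.5-fold. They ranged from -1.38 in H3c7, at no more than 0.32 CPM, to 1.42 in H2bc9, at no more than 0.299 CPM.

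**Figure D4:**
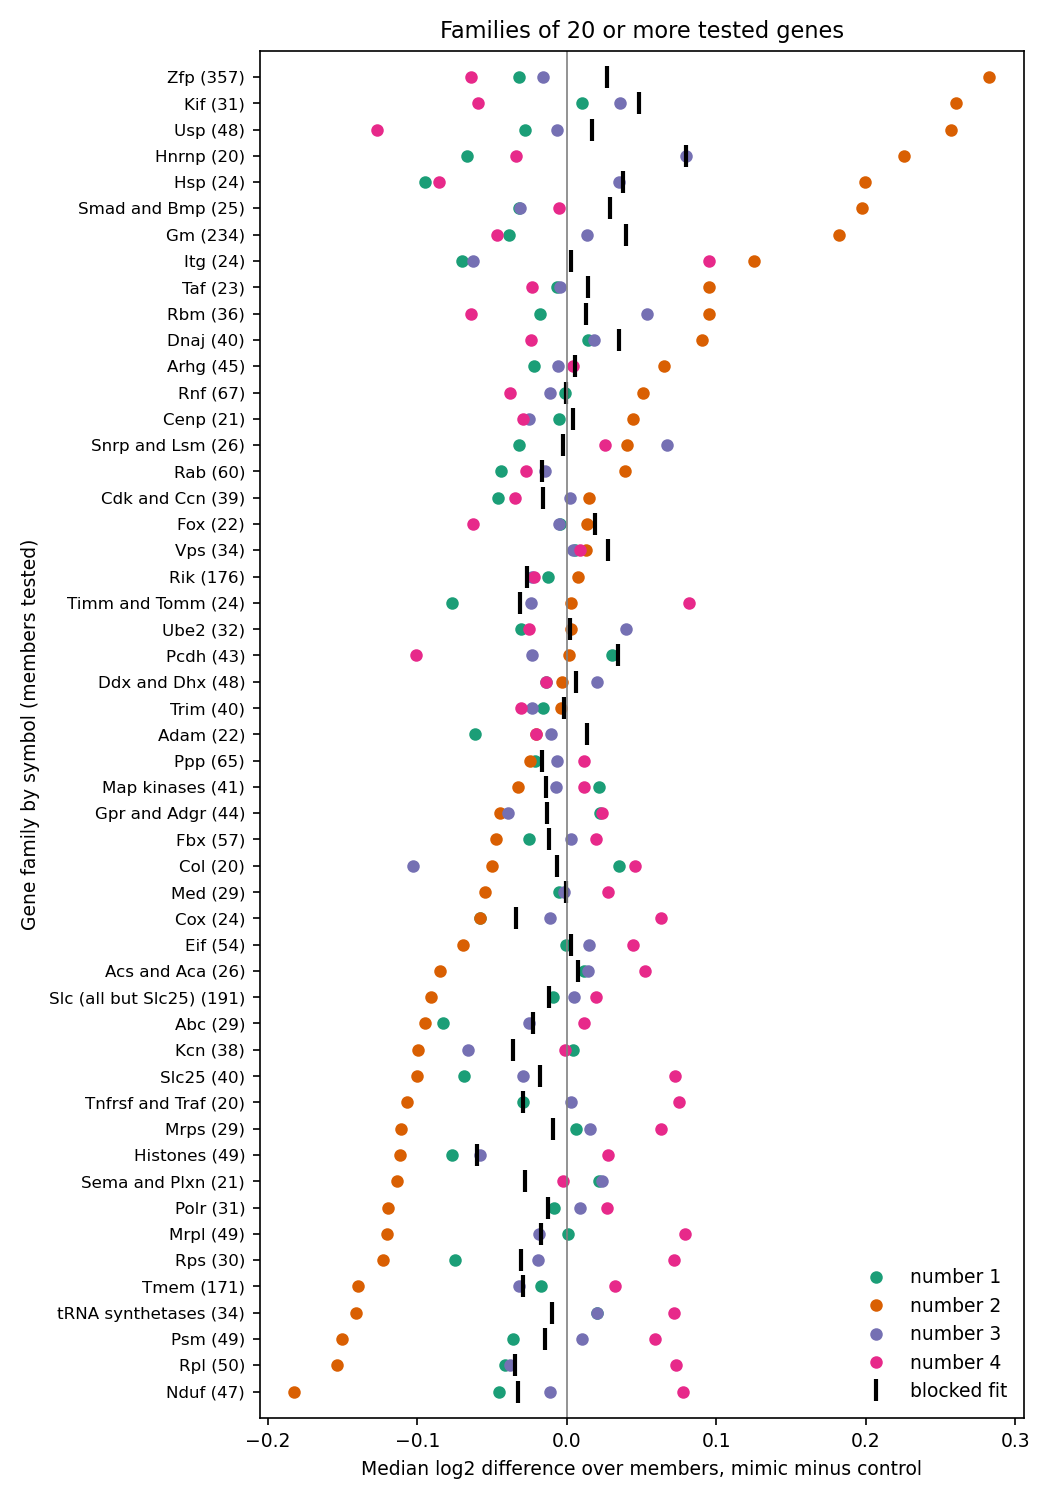
Median log2 difference between mimic and control over the members of the 51 families with at least 20 tested genes, at each replicate number (points) and in the blocked fit (black bars), sorted by the median at number 2. The bars stay within 0.1 of 0, while the points of number 2 run from -0.18 in Nduf to 0.28 in Zfp.

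For a view of single genes, the 10 of smallest p in each direction were taken among genes at 2 CPM or more on average, with a named symbol and the same sign at all 4 numbers. Their agreement in sign is therefore part of the choice, their p-values ran from 0.0073 to 0.03, and each had an adjusted p of 1. The libraries of the 2 groups did not overlap in 5 of the 20, which were Phactr2, Necab2, Hrh1, Sft2d1 and Med18. Over all tested genes this share was 0.654%, but the choice by smallest p and 1 sign itself favours such separation. Phactr2, a regulator of protein phosphatase 1 and actin, had 5.75, 4.42, 5.60 and 6.02 CPM in control and 7.27, 6.29, 7.00 and 7.84 CPM in mimic, a log2 fold change of 0.39 (SE 0.1). P4ha1, a catalytic subunit of collagen prolyl 4-hydroxylase, had 75.1, 74.1, 74.8 and 239.5 CPM in control and 89.2, 87.7, 82.1 and 261.7 CPM in mimic. Number 4 was high in both groups, and within each number mimic exceeded control, by 0.19 on the log2 scale in the fit (SE 0.053). Myo10, a myosin of filopodia, and Rrbp1, a ribosome-binding protein of the endoplasmic reticulum, showed the same layout, with number 4 high in both groups and log2 fold changes of 0.3 (SE 0.097) and 0.14 (SE 0.046).

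Snrpd3, a core protein of spliceosomal particles, had 96.9, 91.0, 98.9 and 108 CPM in control and 104, 109.6, 111 and 119.9 CPM in mimic, and the groups overlapped only between control 4 and mimic 1. The others higher in mimic were Tmem251, a lysosomal trafficking protein (0.38), Slc38a6, of an amino acid transporter family (0.33), Marchf4, a membrane-bound ubiquitin ligase (0.3), Ptpn13, a tyrosine phosphatase (0.2) and Ptp4a1, a small phosphatase (1.09). Ptp4a1 is uncertain, because an overlapping gene in the table carries the same symbol and holds most of the reads, at 30.7 to 51.8 CPM against 0.518 to 8.17 CPM. For that second gene, which holds an 8mer, the difference had the opposite sign, at -0.14. Without number 2 it was -0.29 (SE 0.067, adjusted p = 0.036 by edgeR), while at number 2 mimic was higher by 0.32.

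Among the genes lower in mimic, Dvl2, a transducer of Wnt signals, had 84.4, 108, 80.9 and 76.6 CPM in control and 73.6, 81.6, 76.1 and 66.1 CPM in mimic, a log2 fold change of -0.23 (SE 0.068). The groups overlapped, since mimic 2 exceeded control 3 and 4. Smdt1, an essential part of the mitochondrial calcium uniporter, had 139, 173, 156 and 134 CPM in control and 126, 140.5, 142 and 127 CPM in mimic, with a log2 fold change of -0.16 (SE 0.056). Id3, an inhibitor of basic helix-loop-helix factors, had 22.6, 33.7, 24.8 and 15.7 CPM in control and 20.7, 24.5, 21.2 and 13.6 CPM in mimic, a difference of -0.25 with number 4 low in both groups. Med18, a subunit of Mediator, had 18.7, 19.1, 19.8 and 18.3 CPM in control against 14.8, 16.6, 17.3 and 16.5 CPM in mimic (-0.22, SE 0.081). Hrh1, the histamine H1 receptor, gave -0.3, and Necab2, a neuronal calcium-binding protein, -0.41. The remaining 4 were Nudt14, a nucleotide sugar hydrolase (-0.3), Sfxn4, a sideroflexin of mitochondria (-0.36), Sft2d1 (-0.27) and Fam161b (-0.36).

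**Figure D5:**
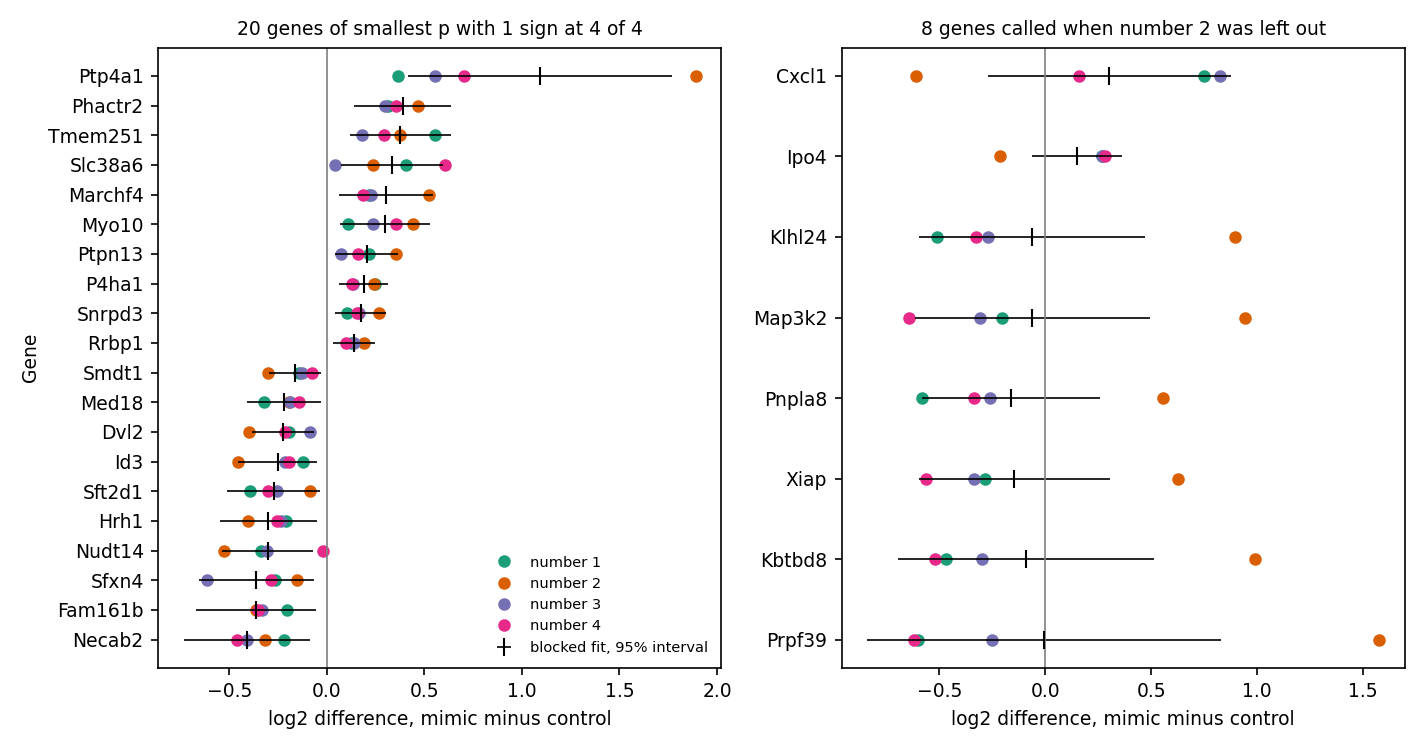
Difference between mimic and control (log2) at each replicate number (points) with the blocked estimate and its 95% interval (black), for the 20 genes of smallest p with 1 sign at all numbers (left) and for 8 genes called when number 2 was left out (right). At right, the point of number 2 lies on the other side of 0 from those of numbers 1, 3 and 4.

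Leaving out number 2 was the one omission of a number that gave calls. The blocked fit of numbers 1, 3 and 4 called 76 of 12858 genes (0.591%), 73 lower (0.568%) and 3 higher in mimic (0.0233%), and 849 lower (6.6%) and 274 higher (2.13%) fell under 0.05 before adjustment. Without number 1, 3 or 4 in turn, edgeR called 0 genes, while 79, 53 and 195 fell under 0.05 before adjustment. Of the 73 genes lower without number 2, 71 were higher in mimic at number 2, all but Gm49378 and Gm21154. The medians of the 73 at numbers 1 to 4 were -0.24, 0.75, -0.22 and -0.37. Over the 8 libraries their median log2 fold change was -0.019. They had a median transcript GC of 40.1%, against 50.3% for all tested genes, a median length of 6303 bases against 3357, and a median 3′ UTR of 3605 bases against 1134. A match to the miR-155-5p seed was present in 36.1% of those with a UTR (4 with an 8mer and 22 with a 7mer), against 13.2% of all tested genes, and 0 were on the list of reported targets. Offsets for GC content in each library, an alternative added after these values were seen, left 2 genes called without number 2, and these were Ipo4 (0.25) and Gm49378 (-4.07), the overlapping pair described above. In that fit 993 genes fell under 0.05 before adjustment, 509 lower and 484 higher in mimic. All 73 genes still had an estimate below 0 there, 71 of them under 0.05 before adjustment, and their median log2 fold change was -0.19 with the offsets against -0.28 without them. With all 4 numbers and GC offsets edgeR called 0 genes, and 275 fell under 0.05 before adjustment.

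Prpf39, a splicing factor of the U1 particle, shows the pattern of these genes, which were named after their values were seen. It had 17.1, 6.60, 10.9 and 14.6 CPM in control and 11.1, 20.7, 9.03 and 9.31 CPM in mimic. Control 2 was the lowest and mimic 2 the highest of the 8 libraries. The log2 fold change was -0.51 without number 2 (SE 0.1, adjusted p = 0.013 by edgeR, the lowest of 0.013 to 1 over all settings) and -0.0046 with it (SE 0.36). Xiap, an inhibitor of caspases, had 17.9, 11.3, 15.4 and 19.9 CPM in control and 14.6, 17.7, 12.1 and 13.3 CPM in mimic, with -0.41 without number 2 and -0.15 with it. Map3k2, a kinase upstream of JNK and ERK5, had 30.4, 14.7, 23.3 and 33.4 CPM in control and 26.4, 28.7, 18.7 and 21.2 CPM in mimic, with -0.39 and -0.061. Pnpla8, a phospholipase, gave -0.4 and -0.16, Klhl24, an adaptor of a ubiquitin ligase, -0.38 and -0.064, and Kbtbd8, another such adaptor, -0.45 and -0.09.

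Of the 3 genes higher without number 2, Cxcl1, a chemokine that attracts neutrophils, had 5.17, 7.90, 5.77 and 14.0 CPM in control and 9.04, 5.00, 10.6 and 15.7 CPM in mimic. Mimic was higher at numbers 1, 3 and 4 and lower at number 2. The log2 fold change was 0.61 without number 2 (SE 0.12, adjusted p = 0.021 by edgeR, the lowest of 0.021 to 1 over all settings) and 0.3 with it (interval -0.27 to 0.88). Ipo4 gave 0.27 and 0.15, and the remaining one was the predicted gene Gm20605.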

How the data were processed

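RNA sequencing of Neuro-2a cells was analysed from 8 libraries, grouped by the labelled treatment. Read counts per gene, in whole numbers, and TPM values were deposited by the authors for 15767 genes. A VAHTS kit was used on total RNA according to the protocols in the labels. The tools named in the submitters' processing notes are STAR, StringTie, featureCounts, fastp and edgeR, and the build is GRCm39. Versions, strandedness, annotation and any filter were not given in the sources used here.

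For the comparison, edgeR 4.0.16 (R 4.3.3) was run on the deposited counts: filterByExpr, TMM scaling, and a robust quasi-likelihood fit with number and group as terms. Tests were two-sided, with Benjamini-Hochberg adjustment over all genes tested, and a gene was called at an adjusted p under 0.05. CPM values use scaled library sizes, with some exceptions that use total counts. These are the sums and correlations of overlapping pairs, the levels of cell markers and the level of 3 reads. Intervals are the unshrunk log2 fold change ± its standard error times the t quantile, cover 95%, and rest on the spread between libraries. Differences at single numbers use log2(CPM + 0.5). Counts were simulated for 12842 genes, with the changed genes drawn from those over 10 CPM. Of these changed genes, the blocked test called 28% at 25% up or 20% down, 88% at 1.5-fold and 98% at 2-fold. There was a mean of 15 false calls per simulation, and intervals covered 95.1% of true values. The share called was not measured for genes at lower levels, and it holds for simulated counts only. Those counts were drawn independently for each gene. A difference shared by many genes, such as the one with GC at number 2, was therefore absent from them.

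Genes were matched by identifier to GENCODE M21 (GRCm38) for GC content, length and 3′ UTRs. Of the symbols, 15499 came with the deposited tables, 260 from a name table, and 8 genes had none. The chi-square between libraries of a group was 25.7 to 233 for each degree of freedom, and 0 pairs were treated as copies.

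The members, gene lists, families and naming rule were chosen with earlier results of these data known. The rule named the 10 smallest p in each direction among genes averaging at least 2 CPM, with a symbol other than Gm or Rik numbers and 1 sign at 4 of 4 numbers, the study's pathway genes, the extremes of each family described and up to 8 reported targets with an 8mer. Alternatives were DESeq2 1.42.0, limma 3.58.1 on log2(TPM + 1) or log2(TPM + 0.1), other scalings and filters, all 12 libraries, no block, leaving out each number and GC offsets. Some markers of the neuroblast list are not reported here.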

Additional observations from a re-analysis of the deposited data

Results flagged for a closer look

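In groups of 4 libraries, a library was picked out where its gap to the nearest other was too large a share of the range of its group by Dixon's 95% critical value, which chance gives in about 1 in 20 groups. Number 4 was the high library in both groups for 3 genes: P4ha1 (239.5 CPM in control, 261.7 CPM in mimic), Myo10 (16.4 and 21.1 CPM) and Rrbp1 (482.1 and 516.2 CPM). Control 2 was high for Ipo4 at 234.7 CPM, and mimic 2 was high for Kbtbd8 at 12.03 CPM. Control 1 was high for Kif28 at 0.32 CPM. Mimic 3 was high for Necab2 at 2.97 CPM and low for Dnm1l at 62.46 CPM. Mimic 1 was high for Tab2 at 142.9 CPM.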

How the results depend on the processing

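The labels do not say what the replicate numbers mark. Deviations of same-numbered libraries from their group means correlated at 0.42, -0.17, 0.49 and 0.79 for numbers 1 to 4. Of the 8 libraries, 5 correlated best with their own number. Control 2 and mimic 3 correlated best with each other (0.62), and mimic 2 did so with control 1 (0.30). The pairing is thus not established for number 2, and for mimic 3 it is not the closest match. With no replicate block, the call count was 0 by edgeR (53 under 0.05 before adjustment), and 39.3% of intervals lay inside the narrow bound. Leaving out 1 number at a time gave 0 to 76 called genes, 37.7 to 69.4% of intervals inside the narrow bound, and 14.1 to 28.9% of genes with 1 sign at the 3 numbers left. Without a filter 2 genes were called, Gm49380 and Gm28048, each with reads in a few libraries and 0 in the rest. GC offsets without number 2 also gave 2. The other settings called 0 genes, and the cause of each change was not tested. Of 648 alternative values of 59 named genes, 607 kept direction and side of the threshold, 8 passed it and 33 reversed. The reversed log2 fold changes had these ranges when 1 number was left out: Pparg -0.10 to 0.00046, Esrra -0.17 to 0.0022, Dnm1l -0.17 to 0.13, Carhsp1 -0.11 to 0.021, Trim32 -0.059 to 0.046, Tab2 -0.045 to 0.13, Arid2 -0.11 to 0.18, Cebpb -0.19 to 0.0064, Tle4 -0.089 to 0.031, Jarid2 -0.000285 to 0.19, Prpf39 -0.51 to 0.23, Kbtbd8 -0.45 to 0.073, Xiap -0.41 to 0.0039, Map3k2 -0.39 to 0.15, Klhl24 -0.38 to 0.096, Hnrnpf -0.087 to 0.011, Ago4 -0.49 to 0.15, Tnrc6a -0.0499 to 0.26 and Kif28 -0.69 to 0.34. On log2(TPM + 1) Trim32 became 0.018, Tle4 0.0025, Prpf39 0.035 and Hnrnpf 0.0048. Prpf39 was 0.029 with no replicate block and 0.0029 with total counts. Of 858 values of families and site classes, 829 were counted as unmoved, under a limit that differed between families. The median of Zfp counted as unmoved from 0.027 with all numbers to -0.045 without number 2. That of Vps counted as moved from 0.0275 to 0.032 with DESeq2. The count therefore does not say whether directions held.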
